A study of Mus musculus with 4 samples.

Results

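The opioid peptide genes Penk, Pdyn, Pnoc and Pomc and the opioid receptor genes Oprm1, Oprd1, Oprk1 and Oprl1 were followed in mouse prefrontal cortex after repeated social threat. Every probe set whose platform annotation gives 1 of these 8 symbols and no other was taken, which found 15 of the 45037 probe sets that are not controls and covered all 8 of the 18193 genes named by a single symbol. Expression was measured on Affymetrix MOE430 2.0 arrays, whose probe sets, groups of short probes, each read 1 transcript or several of a gene. Total RNA of prefrontal cortex from 5 mice was pooled for each array, and there were 4 arrays. Control mice (environment labelled LowThreat) made up 2 pools, and mice under repeated social threat (HighThreat) the other 2. No drug or allele is named for either group. The sources used here do not give strain, sex, age or the form and length of the threat. Pooling averages the animals, so p-values rest on differences between pools and not between mice, and the labels do not say whether pools came from separate cages or days.

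Opioid peptides are cut from large precursor proteins and act on receptors coupled to inhibitory G proteins, which lower cyclic AMP, open potassium channels and close calcium channels. Enkephalins, from Penk, bind mainly the delta and mu receptors, dynorphins, from Pdyn, the kappa receptor, and beta-endorphin, from Pomc, the mu and delta receptors. Nociceptin, from Pnoc, binds the related receptor encoded by Oprl1 and not the classical opioid receptors. In cortex, Penk, Pdyn and Pnoc are transcribed largely in subsets of GABAergic interneurons, Penk is far more abundant in striatal projection neurons, and Pomc is chiefly a gene of pituitary and hypothalamus.

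Values are log2 expression as deposited. Background was read from 27 control probe sets for Bacillus genes, which no mouse RNA should bind and which lay between 3.01 and 4.25. All 4 pools of 12 member probe sets were above 4.25, and all 4 pools of the other 3 were at or below it. The median of the arrays lay between 5.53 and 5.58, and arrays correlated at 0.9942 to 0.9961 across probe sets. All 8 measured cortical projection neuron markers, Slc17a7, Tbr1, Neurod6, Cux2, Fezf2, Bcl11b, Rorb and Rasgrf2, were above the Bacillus range. Tbr1 and Neurod6 lay lower in threat without overlap (log2 differences of -0.53 ± 0.11 and -0.39 ± 0.10, SE) and Slc17a7 higher (0.23 ± 0.10), none with an adjusted p under 0.05 in limma. Of all probe sets, 19.4% lay lower and 23.9% higher without overlap. The pools of the other cortical markers overlapped, and the median difference of the 8 was 0.08.

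No opioid gene differed between threat and control by a margin that passed the test. In limma's test with Benjamini-Hochberg adjustment over all 45037 probe sets, 0 of the 15 member probe sets had an adjusted p under 0.05, against 0% of all probe sets, and the smallest adjusted p of a member was 0.459. At an unadjusted p under 0.05 there were 2 members of 15, 1 of Oprm1 and 1 of Oprl1, against 10.6% of all probe sets (4774). A rule of size asked for 1.5-fold or more between the group means and for no overlap of the groups' pools. It was met by 0 of the 15, against 0.83% of all probe sets. The threat pools lay above the control pools without overlap in 3 member probe sets, against 23.9% of all probe sets, and below them in 2, against 19.4%. These 5 of 15 (33.3%) compare with 43.2% of all probe sets whose pools did not overlap in either direction, so the members' share was not above that of the array as a whole. The members' median log2 difference was -0.01, with 7 above and 8 below 0, and that of all probe sets was 0.015.

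**Figure D1:**
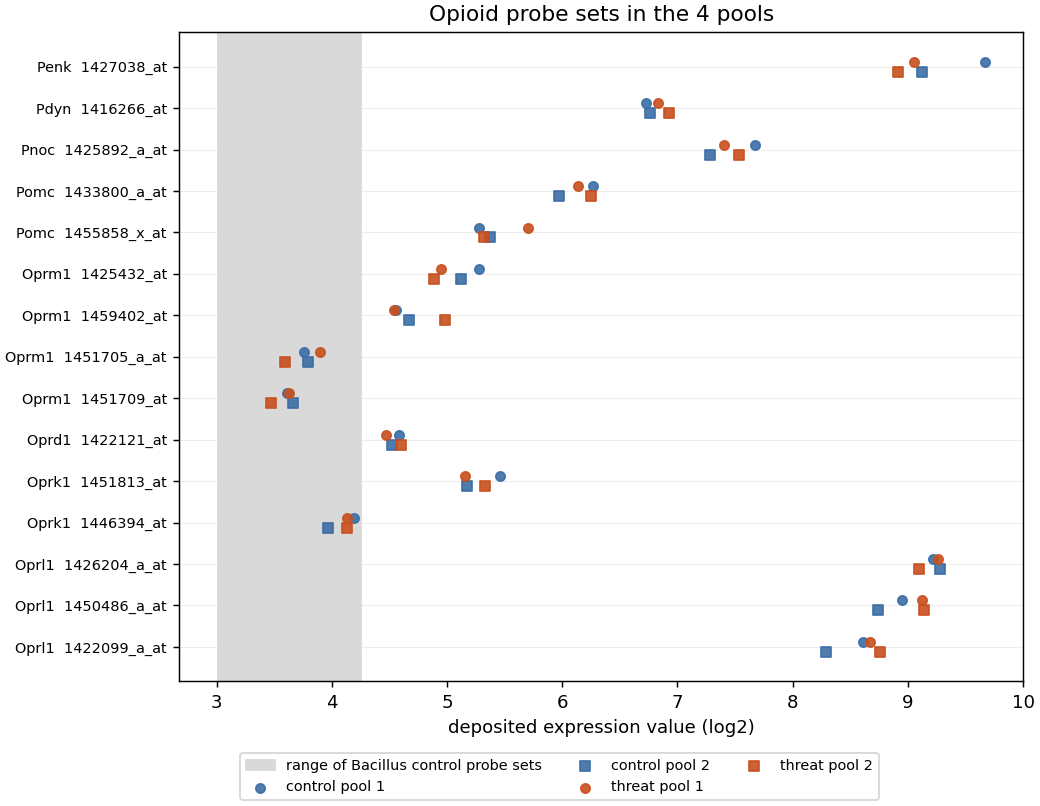
Deposited log2 value (horizontal axis) of each of the 15 opioid probe sets in the 4 pools, with the range of the Bacillus control probe sets in grey (3.01 to 4.25). Points are single pools (blue control, orange threat; circle pool 1, square pool 2), and 2 probe sets of Oprm1 and 1 of Oprk1 lie inside the grey range in all pools.

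Among the peptide precursors, the enkephalin gene Penk had the largest difference of any member, a lower value in threat. Penk (1427038_at) measured 9.67 and 9.12 in control pools 1 and 2 and 9.05 and 8.91 in threat pools 1 and 2. Both threat pools lay below both control pools, but by little below control pool 2, and control pool 1 stood above the other pools. The log2 difference was -0.42 ± 0.19 (SE), or 1.33-fold lower, with a 95% interval from 1.86-fold lower to 1.04-fold higher (limma, adjusted p = 0.498). The difference was smaller than the gap of 0.55 between the control pools. Without control pool 1 it was -0.14, and without control pool 2 it was -0.69. In pooled tissue, fewer cells of a type and less RNA per cell cannot be told apart.

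The dynorphin gene Pdyn lay slightly the other way. Pdyn (1416266_at) measured 6.73 and 6.76 in control and 6.83 and 6.93 in threat, so the groups did not overlap. The difference of 0.13 ± 0.09 (SE), 1.10-fold, exceeded the gaps within the control pools (0.03) and the threat pools (0.10). It did not pass the test (limma, adjusted p = 0.606), and its 95% interval ran from -0.10 to 0.37 on the log2 scale, or up to 1.29-fold higher. Of all probe sets, 31.3% had a difference above the gaps within both groups, and 43.0% had a larger absolute difference than Pdyn.

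The nociceptin gene Pnoc (1425892_a_at) measured 7.67 and 7.28 in control and 7.40 and 7.53 in threat. Both threat pools lay between the control pools, and the difference was -0.01 ± 0.15 (SE), with an interval from 1.31-fold lower to 1.30-fold higher. Its direction turned with the pools: it was 0.19 without control pool 1 and -0.21 without control pool 2.

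Pomc, the precursor of beta-endorphin, corticotropin and melanocyte-stimulating hormones, was read by 2 probe sets, both above the Bacillus controls. The first (1433800_a_at) measured 6.27 and 5.97 in control and 6.14 and 6.25 in threat, a difference of 0.07 ± 0.13 (SE). The second (1455858_x_at), whose suffix marks probes that can also match other sequences, measured 5.28 and 5.37 in control and 5.70 and 5.32 in threat, a difference of 0.19 ± 0.14. The pools overlapped in both, and the value of 5.70 in threat pool 1 stood above the other pools. Without that pool the second probe set differed by 0.00. The intervals of the Pomc probe sets allowed a level up to 1.32-fold and 1.46-fold higher in threat.

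**Figure D2:**
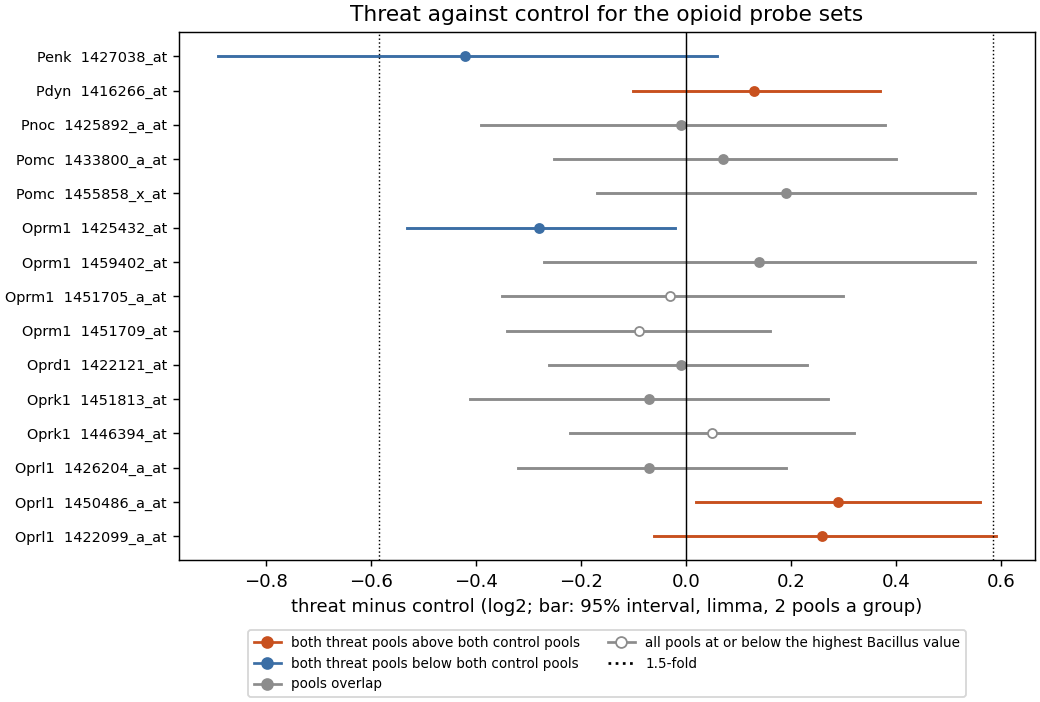
Log2 difference, threat minus control (horizontal axis), of each opioid probe set with its 95% interval from limma, 2 pools a group, and dotted lines at 1.5-fold. The largest difference is that of Penk at -0.42, and the intervals of 2 probe sets, 1 of Oprm1 and 1 of Oprl1, exclude 0 before adjustment.

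Of the receptor genes, Oprm1, which encodes the mu receptor, the main target of morphine, was read by 4 probe sets at low levels. The brightest (1425432_at) measured 5.28 and 5.12 in control and 4.95 and 4.89 in threat. Both threat pools lay below both control pools, and the difference of -0.28 ± 0.10 (SE), 1.21-fold lower, was above the gaps of 0.16 and 0.06 within the groups. The 95% interval ran from -0.53 to -0.02 and the adjusted p in limma's test was 0.459. These values lay 0.70 to 1.11 above the highest Bacillus control of the same array.

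The other probe sets of Oprm1 did not show that separation. The next (1459402_at) measured 4.56 and 4.67 in control and 4.54 and 4.98 in threat, a difference of 0.14 ± 0.16 (SE), and threat pool 2 was its highest. Within an array, the first probe set lay above this one by 0.71 and 0.44 in control and by 0.42 and -0.09 in threat. The remaining 2 (1451705_a_at and 1451709_at) lay at or below the highest Bacillus value in all pools, between 3.47 and 3.90, and differed by -0.03 and -0.09. The mean difference over the 4 probe sets was -0.06.

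Oprd1, the delta receptor gene, was measured by 1 probe set (1422121_at) just above background, at 4.58 and 4.52 in control and 4.47 and 4.60 in threat. The threat pools lay to either side of the control pools. The difference was -0.01 ± 0.10 (SE), with an interval from 1.20-fold lower to 1.17-fold higher, and the pools lay 0.22 to 0.43 above the highest Bacillus control of its array.

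Oprk1, the gene of the kappa receptor for dynorphin, had 2 probe sets. The brighter (1451813_at) measured 5.46 and 5.17 in control and 5.16 and 5.33 in threat, a difference of -0.07 ± 0.13 (SE) with overlapping pools. The dimmer (1446394_at) lay within the Bacillus range in all pools, from 3.97 to 4.19. The kappa receptor gene thus had 1 reading above background, whose interval ran from 1.32-fold lower to 1.20-fold higher.

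Oprl1, the nociceptin receptor gene, was the receptor read well above background, by 3 probe sets that lay 4.06 to 5.05 above the highest Bacillus control of the same array. The brightest (1426204_a_at) measured 9.22 and 9.28 in control and 9.26 and 9.10 in threat, a difference of -0.07 ± 0.10 (SE) with overlapping pools. The second (1450486_a_at) measured 8.95 and 8.74 in control and 9.12 and 9.14 in threat, a difference of 0.29 ± 0.11 (limma, adjusted p = 0.461), or 1.22-fold higher. The last (1422099_a_at) measured 8.61 and 8.29 in control and 8.67 and 8.76 in threat, a difference of 0.26 ± 0.13.

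In the last 2 Oprl1 probe sets both threat pools were above both control pools, with control pool 2 the lowest, and in the first threat pool 2 was the lowest. These 2 kept nearly the same distance within each array, 0.34 and 0.44 in control and 0.45 and 0.38 in threat. Against the first, the second lay at -0.27 and -0.54 in control and at -0.14 and 0.03 in threat. The suffix of all 3 marks probe sets that match several transcripts of 1 gene, and which transcripts each one reads was not analysed here. The size of the higher values rested on control pool 2: without it the differences were 0.18 and 0.11, and without control pool 1 they were 0.39 and 0.42.

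**Figure D3:**
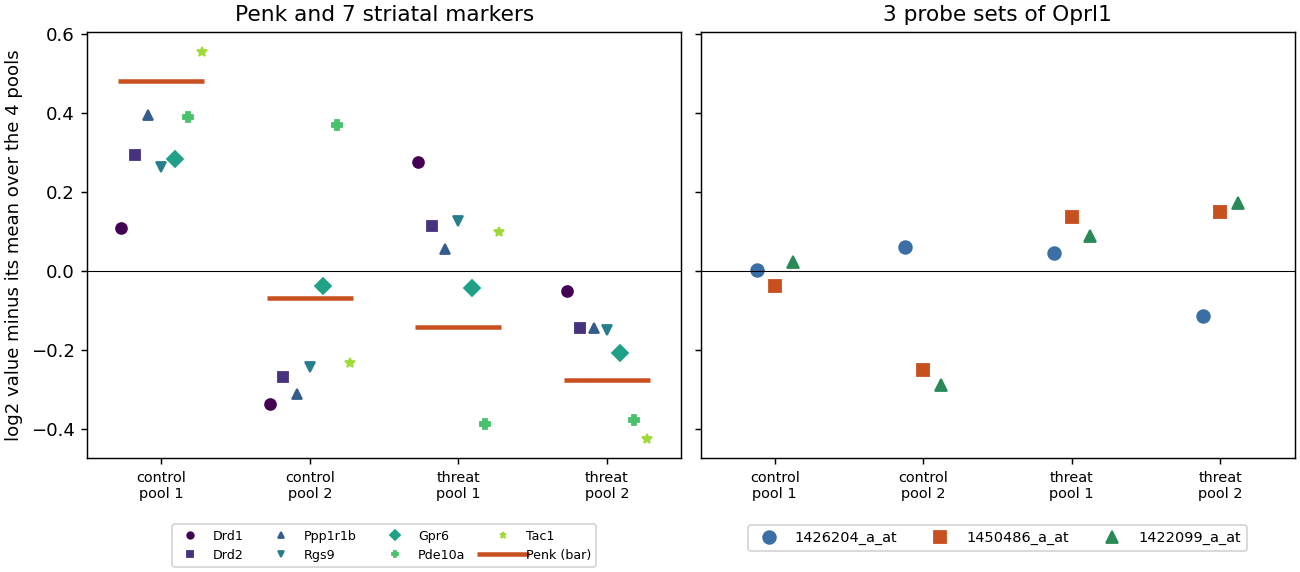
Log2 value minus its own mean over the 4 pools (vertical axis) in each pool, for Penk (orange bars) and 7 markers of striatal projection neurons on the left and for the 3 probe sets of Oprl1 on the right. Control pool 1 is the highest pool for Penk and for 6 of the 7 markers, while 2 of the 3 Oprl1 probe sets are lowest in control pool 2. Control pool 1 is also highest for all 9 measured oligodendrocyte markers, not shown here.

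The sequence before the outermost start of Pdyn, Pomc, Oprm1 and Oprl1 is shown as a description. Pools did not overlap for Pdyn and for 1 or more probe sets of Oprm1 and Oprl1, but this held for 43.2% of all probe sets. Those of Pomc and Oprd1 overlapped. The windows therefore cannot be read as a contrast between genes that respond to threat and genes that do not. The RefSeq promoter table (GRCm38.p6) matched 5 of the 8 members: Pdyn, Pomc, Oprm1, Oprl1 and Oprd1. Each printed window is the 250 bases before the outermost start, 5′ to 3′ on the gene's strand. Capitals mark TATAAA, the core of the TATA box, GGGCGG, the GC box, and TGACG, the core of the cAMP response element, searched on both strands; no matches overlap. Pdyn lies on the minus strand at chr2:129699939-129700188, Pomc on the plus strand at chr12:3954695-3954944, Oprm1 on the plus strand at chr10:6758343-6758592 and Oprl1 on the plus strand at chr2:181714766-181715015.
Pdyn: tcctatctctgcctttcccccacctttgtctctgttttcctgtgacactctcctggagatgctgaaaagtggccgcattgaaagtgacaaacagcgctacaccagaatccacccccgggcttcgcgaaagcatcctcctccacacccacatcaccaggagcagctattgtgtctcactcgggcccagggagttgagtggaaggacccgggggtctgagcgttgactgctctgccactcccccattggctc
Pomc: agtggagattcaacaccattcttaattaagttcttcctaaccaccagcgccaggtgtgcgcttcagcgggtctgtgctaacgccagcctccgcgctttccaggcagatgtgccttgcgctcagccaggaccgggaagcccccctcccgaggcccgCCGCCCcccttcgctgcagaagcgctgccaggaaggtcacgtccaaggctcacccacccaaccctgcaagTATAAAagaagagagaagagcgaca
Oprm1: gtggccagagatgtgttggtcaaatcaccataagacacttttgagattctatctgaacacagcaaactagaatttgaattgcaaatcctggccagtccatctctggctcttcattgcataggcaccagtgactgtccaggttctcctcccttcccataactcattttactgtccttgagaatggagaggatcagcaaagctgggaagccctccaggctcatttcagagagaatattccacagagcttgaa
Oprl1: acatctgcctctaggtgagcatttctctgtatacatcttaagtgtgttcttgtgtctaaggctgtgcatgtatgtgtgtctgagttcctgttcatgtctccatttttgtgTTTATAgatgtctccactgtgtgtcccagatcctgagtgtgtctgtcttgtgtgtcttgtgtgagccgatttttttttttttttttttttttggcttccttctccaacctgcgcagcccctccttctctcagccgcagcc

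Pomc had TATAAA starting 25 bases before its start and 1 GC box, whereas Oprl1 had its TATAAA match, on the opposite strand, 140 bases before the start, and neither Pdyn nor Oprm1 had any of the 3 motifs in this window. The window of Oprd1, not printed, was 80.0% G and C with 4 GC boxes, against 57.2% in Pdyn, 60.0% in Pomc, 45.6% in Oprm1 and 44.4% in Oprl1. TGACG was in none of these 5 windows. RefSeq also gives other starts, with 2 windows for Pdyn and 3 each for Oprm1 and Oprl1. The windows of these genes that are not printed held none of the 3 motifs. The TATAAA match of Oprl1 was thus in 1 of its 3 windows, and the printed Oprm1 window is that of 1 start among several. Over all 32851 windows of this length in the table, 12.4% held TATAAA, 32.7% the GC box and 17.8% TGACG. The array measured no binding at these starts, and the matches are descriptions of sequence.

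The other genes of opioid signalling were taken from 6 lists, of which 64 of 69 genes had a probe set with 1 symbol. The brightest probe set stood for each gene. In limma's test 0 of the 64 had an adjusted p under 0.05. At an unadjusted p under 0.05 there was 1 gene, higher in threat, against 4.87% of all probe sets higher and 5.73% lower. Their median difference was 0.06, with 41 above and 23 below 0. The median was 0.015 over all probe sets and 0.032 over those with a mean above the highest Bacillus value. The pools of 18 lay higher and of 5 lower in threat without overlap, together 35.9% against 43.2% of all probe sets and 46.5% of those above the Bacillus controls.

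The enzymes and helpers that cut and finish opioid peptides had a median difference of -0.01 over 8 genes. Without overlap of pools 1 was higher and 2 were lower, against 23.9% and 19.4% of all probe sets. Carboxypeptidase E (Cpe), which trims basic residues from the cut peptides, differed by -0.18 ± 0.09 (SE), the lysosomal and granule protease Ctsl by -0.19 ± 0.10 and the carboxypeptidase Cpd by 0.20 ± 0.12 (0.09 as the mean of its probe sets). The convertase Pcsk1, which makes the first cuts in Pomc, measured 6.90 and 6.94 in control and 7.08 and 7.05 in threat, a difference of 0.14 ± 0.09. The peptidases able to break down opioid peptides had a median of 0.12 over 9 genes, with 7 above 0. The pools of 4 were higher without overlap, against 23.9% of all probe sets. Thop1 differed by 0.24 ± 0.14, Ece2 by 0.18 ± 0.11 and Prep by 0.17 ± 0.10, but the mean differences over all probe sets of Thop1 and Ece2 were 0.03 and -0.08. Leaving out 1 pool moved Thop1 between 0.11 (without threat pool 1) and 0.37 (without threat pool 2). Mme, the enkephalin-degrading neprilysin, differed by -0.09 ± 0.19.

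The receptors' partners in the membrane had a median of 0.05 over 20 genes. Without overlap 7 of them were higher and 1 lower, against 23.9% and 19.4% of all probe sets. Adcy8, a calcium-stimulated adenylyl cyclase, was the gene under the unadjusted threshold: it measured 7.14 and 7.09 in control and 7.48 and 7.61 in threat. Its difference was 0.43 ± 0.10 (SE), or 1.35-fold (limma, adjusted p = 0.423). The N-type calcium channel gene Cacna1b differed by 0.35 ± 0.17, which moved to 0.12 with control pool 1 left out and to 0.57 with control pool 2 left out. The cyclase Adcy3 differed by 0.24 ± 0.10, with a mean difference of 0.06 over its probe sets. The inhibitory G protein gene Gnai2 was the 1 lower, at -0.20 ± 0.09, while Gnai1, Gnai3 and Gnao1 differed by -0.02, -0.03 and 0.08.

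Receptor kinases, arrestins and RGS proteins, which end the receptor's signal, had a median of 0.02 over 11 genes. The largest differences were those of the kinase Grk3 (0.15 ± 0.09, SE), Arrb2 (-0.11 ± 0.13) and Arrb1 (0.10 ± 0.09), and for Arrb2 the mean of its probe sets was 0.02. Non-classical binding sites and opposing peptides had a median of -0.03 over 6 genes. In that list the scavenger receptor Ackr3 differed by -0.22 ± 0.16 (-0.04 without control pool 2), the cholecystokinin receptor Cckbr by 0.20 ± 0.10 and the anti-opioid peptide gene Npff by -0.14 ± 0.11. Transcription factors tied to opioid genes had a median of 0.08 over 10 genes. Fosb differed by 0.46 ± 0.27 (0.05 without control pool 1), with 6.46 in control pool 1 against 7.28 in control pool 2 and 7.19 and 7.48 in threat. Fos and Junb differed by 0.22 each and turned to -0.26 and -0.12 without control pool 1. Kcnip3, whose product represses Pdyn, differed by 0.07 ± 0.10.

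**Figure D4:**
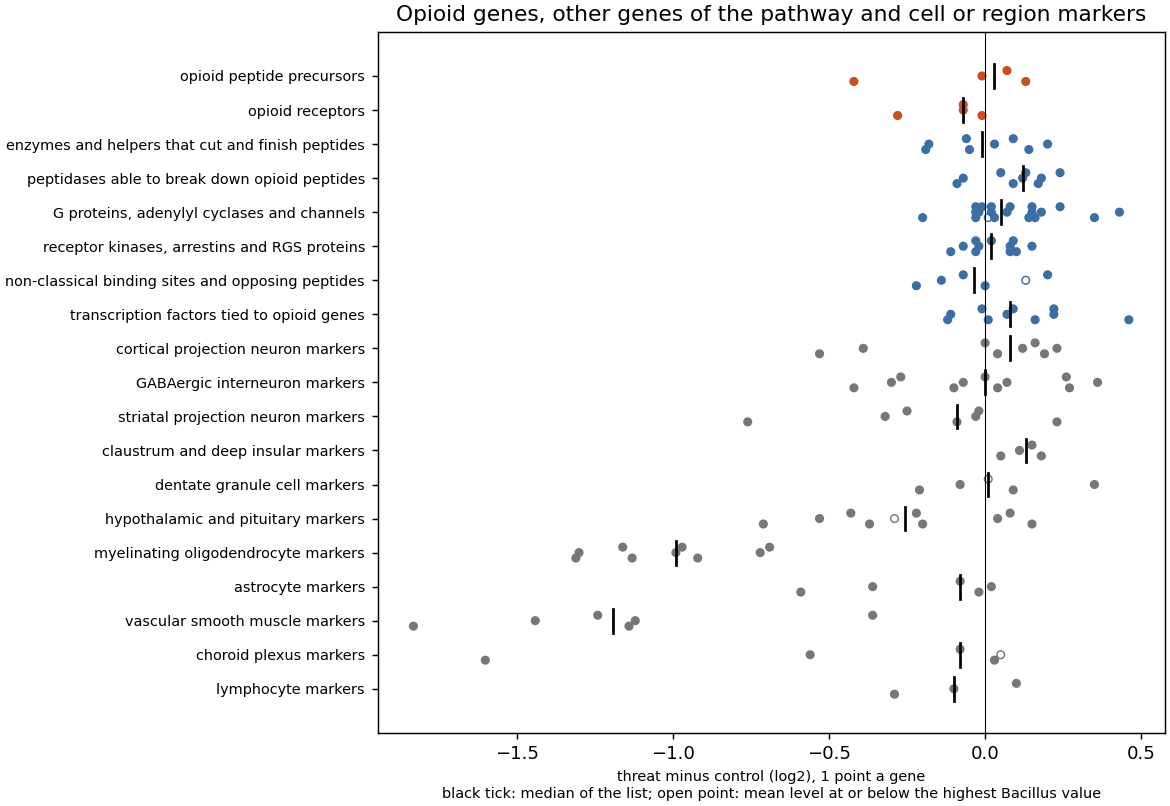
Log2 difference, threat minus control (horizontal axis), for each gene of the opioid peptide and receptor lists (orange), the 6 lists of the pathway (blue) and 11 lists of cell or region markers (grey), by its brightest probe set, with the list median as a black tick. The medians of the opioid and pathway lists lie between -0.07 and 0.12, while those of oligodendrocyte and smooth muscle markers lie at -0.99 and -1.19. The brightest probe set of Oprl1, shown here, differed by -0.07, and its others, not shown, by 0.29 and 0.26.

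Markers of cells and regions that could hold opioid transcripts were read beside the members. Of the striatal projection neuron markers, 6 of the 7 measured were highest in control pool 1, the pool in which Penk was highest, against 27.3% of all probe sets. The same held for 6 of the 11 interneuron markers and 6 of the 15 member probe sets. Control pool 1 was also highest for all 9 measured oligodendrocyte markers and for most hypothalamic and pituitary markers. A peak in that pool was thus not particular to striatal markers. The striatal markers' mean log2 level was 8.11 and 7.63 in control and 7.82 and 7.57 in threat, and the 7 were all above the Bacillus controls. Their median difference was -0.09. Without overlap 0 were higher and 2 lower, against 23.9% and 19.4% of all probe sets. Drd1, the 1 marker above 0, was highest in threat pool 1, at 8.27 and 7.82 in control and 8.44 and 8.11 in threat. Tac1, the substance P precursor, measured 10.42, 9.64, 9.97 and 9.44 in control 1, control 2, threat 1 and threat 2, and Ppp1r1b, the phosphoprotein DARPP-32, measured 8.90, 8.20, 8.56 and 8.36. Pde10a, a striatal phosphodiesterase, was 8.73 and 8.71 in control and 7.96 in each threat pool by its brightest probe set, a difference of -0.76 ± 0.09 (SE; limma, adjusted p = 0.320), while the mean difference of its probe sets was -0.12. In Penk, Gpr6 and Pde10a both threat pools lay below control pool 2. In Drd1, Drd2, Ppp1r1b, Rgs9 and Tac1 threat pool 1 lay above it. The part of tissue from striatum in the Penk values was not tested.

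GABAergic interneuron markers had a median of 0.00 over 11 genes. Without overlap 2 were higher and 2 lower, against 23.9% and 19.4% of all probe sets. Gad1, the main GABA-synthesising enzyme, measured 11.78 in each control pool and 11.35 and 11.37 in the threat pools, a difference of -0.42 ± 0.09 (SE; limma, adjusted p = 0.413), while the mean difference of its probe sets was -0.15. Pvalb differed by -0.30 ± 0.25 and Reln by 0.36 ± 0.23, but without control pool 1 they were at 0.02 and 0.01. The mean difference of the Reln probe sets was 0.17. Sst and Vip, which mark interneuron classes, differed by 0.00 and 0.04. Claustral markers had a median of 0.13 over 4 genes and dentate granule cell markers, of cells rich in Pdyn, 0.01 over 5. Most dentate markers were read at low levels. Dsp lay at or below the highest Bacillus value in all pools and Prox1 in 1 pool. C1ql2 lay 0.57 to 0.77 and Tdo2 0.63 to 1.36 above the highest Bacillus control of the same array.

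Hypothalamic and pituitary markers, of the regions where Pomc is abundant, gave a median of -0.26 over 10 genes. Of these, 5 were lower without overlap, against 19.4% of all probe sets, and 1 of the 5 (Prl) was at or below the Bacillus controls in all pools. Among the markers with a mean above the Bacillus controls the median was -0.22. The mean level of the 10 was 5.45 and 5.11 in the control and 5.11 and 4.95 in the threat pools. Gh, growth hormone, measured 6.04 in control pool 1 and 4.89, 4.94 and 4.56 in control pool 2 and the threat pools. Gal and Oxt differed by -0.53 ± 0.13 and -0.43 ± 0.12 (SE), and Gal lay 0.29 to 1.06 above the highest Bacillus control of the same array. Of the 10 markers, 7 were below 0 and 3 above: Pmch (0.15), Tshb (0.08) and Cga (0.04). The differences of both Pomc probe sets were above 0. The part of these regions in the Pomc values was not tested.

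Among markers of non-neuronal cells, those of oligodendrocytes and smooth muscle lay lower in threat throughout, though limma gave none of the non-neuronal markers an adjusted p under 0.05. All 9 measured myelinating oligodendrocyte markers were lower in threat without overlap, against 19.4% of all probe sets. Their mean levels were 10.57 and 10.10 in control and 9.20 and 9.42 in threat. All 6 vascular smooth muscle markers were lower too, with mean levels of 7.44 and 8.44 in control and 6.62 and 6.88 in threat. Astrocyte markers had a median of -0.08 over 5 genes: Gfap (-0.59 ± 0.13, SE) and Gja1 (-0.36 ± 0.11) lay lower without overlap, while Aqp4, Slc1a3 and Aldh1l1 differed by -0.08, -0.02 and 0.02. The lymphocyte list had a median of -0.10 over 3 genes, of which Ptprc is not confined to lymphocytes. Ptprc, Cd3e and Cd79a differed by -0.29 ± 0.17, 0.10 ± 0.10 and -0.10 ± 0.16, and Cd79a was at or below the highest Bacillus value in 1 pool. Of the choroid plexus markers, with a median of -0.08 over 5, Ttr measured 9.05 in control pool 1 and 6.48, 6.15 and 6.18 in control pool 2 and the threat pools. Clic6 differed by -0.56 ± 0.15 and Folr1 by -0.08, while Kl and Aqp1 differed by 0.03 and 0.05. Aqp1 lay at or below the highest Bacillus value in all pools. The part of these tissues in the values of the opioid genes was not tested.

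Of the members whose brightest probe set was above the Bacillus controls, Penk was the one with a range over the pools of at least 1.5-fold, 0.76 on the log2 scale, so that its pattern could be set beside those of other genes. The 3 genes whose centred values were closest to those of Penk were Lynx1, which encodes a modulator of nicotinic receptors (root mean square difference 0.014, by probe set 1441952_x_at), the macrophage lectin gene Siglec1 (0.017) and Frs3os (0.029). With 4 pools, likeness at a wider distance is shared by many genes. Within 0.15 of Penk lay 632 genes, each counted once, taken from 27224 named probe sets above the Bacillus controls.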

How the data were processed

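The authors deposited log2 expression, 1 value for each array and probe set, which was used unchanged. The submitters' processing notes name RMA, which as usually run corrects background, gives all arrays 1 distribution and summarises probes; version, settings and chip definition are not given. After it, a shift shared by most transcripts would be lost. Detection calls were not used here.

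The members, gene lists and tests were chosen with earlier results of these data known. The 64 control probe sets were left out. The other 45037 were fitted in R 4.3.3 by limma 3.58.1 (lmFit, then eBayes; 2-sided; 2 residual degrees of freedom; Benjamini-Hochberg adjustment), with code tested on simulated data. An exact permutation test of 2 pools against 2 cannot go below 0.333 and was not run. Precision is limited by the number of arrays. The standard error of a difference had a median of 0.108. In eBayes it draws also on the variance of all other probe sets (3.53 prior degrees of freedom). Standard errors, intervals and p-values thus do not measure the spread of that gene's pools alone. The platform annotation gave 1 symbol for 34945 probe sets, several for 932 and none for 9160. Named genes were all members and, of each other list, up to 3 with the largest absolute difference among those above the Bacillus controls; further list genes were named after their values were seen. Alternatives were a replicate block, an intensity trend, cyclic loess, median centring, a filter on dim probe sets, other thresholds, other gene summaries and each pool left out.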

Additional observations from a re-analysis of the deposited data

How the results depend on the processing

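In limma's test no probe set, member or other, passed an adjusted p of 0.05 under any setting run, with the count at 0 to 0 when 1 pool was left out. The number of member probe sets past the rule of size was 0, and 1 (Penk) with the lower of the alternative thresholds. It was 0 to 1 when 1 pool was left out, the 1 being Penk (-0.69) without control pool 2. With the pool number as a replicate block, 3 members in place of 2 had an unadjusted p under 0.05 (6054 probe sets in all), and the smallest adjusted p of a member was 0.368. The labels do not say that the numbers pair the pools; deviations of same-numbered pools from their group means correlated at 0.33. Signs turned where differences were near 0: Oprd1 to 0.01 with cyclic loess and 0.02 with median centring, and Pnoc to 0.03 and Oprm1 (1451705_a_at) to 0.01 with median centring. Averaged over all probe sets of a gene, Oprl1 was at 0.16, Ece2 at -0.08, Arrb2 at 0.02, Ntng2 at -0.02 and Ptprc at 0.03. Where a sign turned, leaving out 1 pool gave the ranges -0.21 to 0.19 for Pnoc, -0.08 to 0.23 for Pomc (1433800_a_at), -0.08 to 0.36 for Oprm1 (1459402_at), -0.18 to 0.13 for Oprm1 (1451705_a_at), -0.08 to 0.05 for Oprd1, -0.22 to 0.08 for Oprk1 (1451813_at), -0.06 to 0.16 for Oprk1 (1446394_at), -0.14 to 0.01 for Oprl1 (1426204_a_at), -0.26 to 0.04 for Arrb2, -0.26 to 0.70 for Fos, -0.12 to 0.56 for Junb, -0.62 to 0.02 for Pvalb, -0.72 to 0.07 for Tac1, -0.02 to 0.23 for Ntng2, -0.23 to 0.41 for Trpc6, -0.19 to 0.04 for Aqp4 and -0.32 to 0.11 for Cd79a. Without any turn of sign under the settings run were 7 of the 15 member probe sets. The causes were not tested. With cyclic loess the pools of 2 members lay higher and of 3 lower without overlap, in place of 3 and 2. The 2 pools a group limit what the intervals can show, and levels near the Bacillus controls limit Oprd1, Oprk1 and Oprm1.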
